A study of Oryza sativa with 44 samples.

Results

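OsCCC2 is the rice gene LOC_Os01g19850, listed in RefSeq on chromosome 1 with the synonyms OsCCC2 and KCC2, a cation-chloride cotransporter. It was 1 of 58089 features in the deposited tables and the only ID that a name in the reference table (assembly ASM3414082v1) could be paired with. It was chosen by this name and selected on its measured values in these libraries, which were already known to differ between groups. Its own levels and differences are therefore given as a description, with no test. It is set beside the 20 loci that stand next to it in locus ID order, 10 on each side.

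Cation-chloride cotransporters are membrane proteins that carry chloride together with potassium, sodium or both, so that no net charge moves. In Arabidopsis the single member of the family works in compartments of the Golgi and early endosome, and plants without it grow poorly. In rice the related OsCCC1 is known for a part in cell elongation and in keeping the osmotic balance of cells. The other loci named below have no gene name in the sources used here, so no role is given for them.

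RNA was sequenced from rice (Oryza sativa) seedlings aged 2 weeks and raised in nutrient solution, in 44 libraries of 15 groups. The controls were the wild types NIP and DJ. The knockout lines osythdf1a, osythdf2a and osythdf3a were made by CRISPR and labelled DJ, and the knockouts osythdf1b, osythdf1c, osythdf2b, osythdf3b, osythdf3c, osythdf4c and osythdf5c were labelled NIP. The knockdown lines RNAi-OsYTHDF2C and RNAi-OsYTHDC1A and the overexpression line OE-OsYTHDF1A were also labelled NIP. The targeted genes belong to the YTH family, whose proteins bind methylated adenosine in RNA, and the series asks how changing them alters gene expression. There were 2 libraries of osythdf2a and 3 of each other group. The labels name neither the organ taken nor the number of independent events behind a line, and the transcripts of the YTH genes were not analysed here because their IDs could not be paired with names. In such bulk samples, fewer cells of a type and less RNA per cell cannot be told apart. Library totals ran from 13541543 to 24099581 counts.

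OsCCC2 was a weakly expressed gene. It was counted in all 44 libraries, with 6 to 70 counts in each and 1105 counts in all. Levels are given in CPM, counts scaled to the library total, and lay between 0.284 and 3.67 CPM. Of the 44 libraries, 23 reached 1 CPM. On the per-length scale of the deposited FPKM, group means went from 0.181 in NIP to 1.38 in osythdf2a, and between 24.95% and 38.1% of the loci detected in a group had a lower FPKM than OsCCC2. Within groups its counts spread little more than counting error alone would give, with a chi-square per degree of freedom of 1.13 over 29 degrees of freedom.

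In the wild type NIP the 3 libraries stood at 0.294, 0.388 and 0.616 CPM, on 7, 9 and 14 counts. In the wild type DJ they stood at 1.77, 1.75 and 2.37 CPM, on 29, 32 and 44 counts. The wild types did not overlap, and DJ was 4.54 times as high as NIP, with a 95% counting interval from 3.03 to 7.13. All counting intervals given here are exact and cover counting error only. Those of ratios were computed on counts and library totals pooled within each group. That pooled ratio, 4.59 for DJ over NIP, differs slightly from the printed ratio of group means. The share of all tested features called different between DJ and NIP, in either direction, was 75.1% (edgeR, adjusted p under 0.05).

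**Figure D1:**
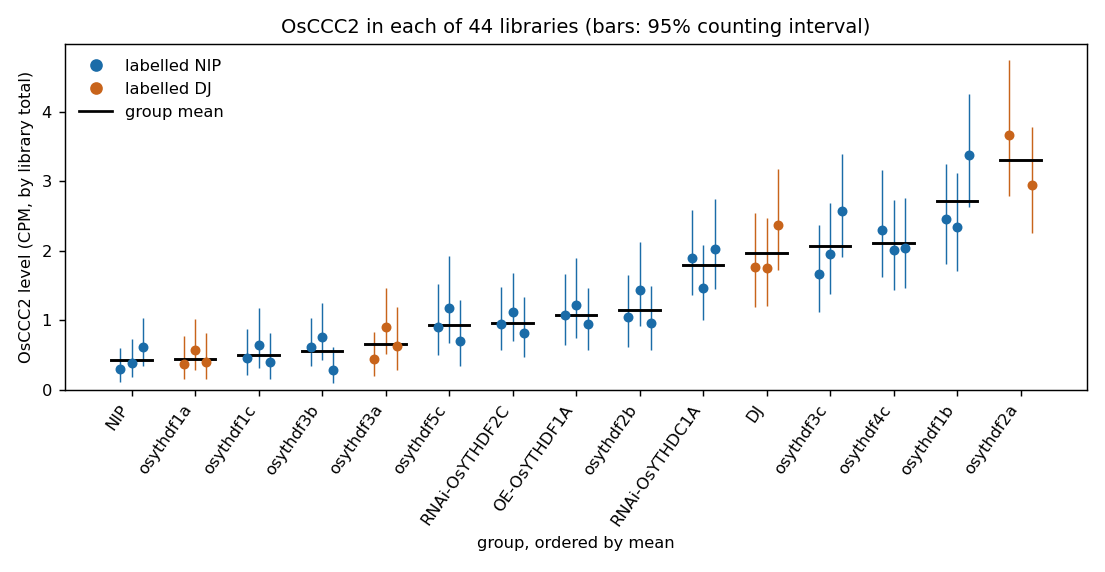
Level of OsCCC2 in CPM (vertical axis) in each library, by group (horizontal axis), with blue points for libraries labelled NIP, orange points for those labelled DJ, exact 95% counting intervals as bars and the group mean as a black line. The groups run from NIP at 0.433 CPM to osythdf2a at 3.31 CPM, and the 6 groups on the right all stand at 1.47 CPM or more in every library.

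Among lines labelled NIP, osythdf1b had the highest level, with libraries at 2.45, 2.33 and 3.37 CPM. The libraries of osythdf4c were at 2.30, 2.01 and 2.04 CPM, and those of osythdf3c at 1.66, 1.95 and 2.58 CPM. All 9 of these libraries lay above every NIP library. RNAi-OsYTHDC1A had 1.90, 1.47 and 2.02 CPM, again above NIP throughout. The ratios of the group means to NIP were 6.29 in osythdf1b (95% counting interval from 4.29 to 9.72), 4.89 in osythdf4c (3.25 to 7.56), 4.77 in osythdf3c (3.21 to 7.46) and 4.16 in RNAi-OsYTHDC1A (2.76 to 6.46). The means of these 4 groups ran from 1.80 to 2.72 CPM, beside 1.96 CPM in DJ.

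A middle set of lines labelled NIP stood between NIP and these 4. OsCCC2 was at 1.04, 1.43 and 0.960 CPM in osythdf2b and at 1.07, 1.23 and 0.941 CPM in OE-OsYTHDF1A. It was at 0.945, 1.11 and 0.820 CPM in RNAi-OsYTHDF2C and at 0.908, 1.18 and 0.704 CPM in osythdf5c. None of these 12 libraries overlapped NIP. The ratios to NIP were 2.64 in osythdf2b (95% counting interval from 1.67 to 4.22), 2.49 in OE-OsYTHDF1A (1.57 to 4), 2.22 in RNAi-OsYTHDF2C (1.41 to 3.60) and 2.15 in osythdf5c (1.31 to 3.58).

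In osythdf1c the libraries stood at 0.460, 0.641 and 0.396 CPM, and in osythdf3b at 0.622, 0.757 and 0.284 CPM. Both lines overlapped NIP. Their ratios to NIP were 1.15 and 1.28, with 95% counting intervals from 0.650 to 2.00 and from 0.771 to 2.16, so the counting error does not exclude a ratio of 1 or one of about that upper size. In all, 8 of 10 lines labelled NIP had every library above NIP and 2 overlapped it. Over the same 10 comparisons edgeR called between 40.0% and 78.5% of all tested features, in either direction. Such calls are another measure than libraries lying wholly above NIP, for which the share over all features is not given here. The same NIP libraries, the lowest group for OsCCC2, served all 10 comparisons.

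The lines labelled DJ went in both directions from DJ. The libraries of osythdf2a, at 3.67 and 2.95 CPM, were above every DJ library, and its ratio to DJ was 1.69 (95% counting interval from 1.26 to 2.17). Those of osythdf1a, at 0.378, 0.573 and 0.394 CPM, were below every DJ library, with a ratio of 0.228 (0.141 to 0.356). Those of osythdf3a, at 0.438, 0.900 and 0.631 CPM, were also below, with a ratio of 0.334 (0.216 to 0.487). The 10 most abundant genes took 16.3% of the counts in replicate 3 of osythdf3a, while in replicates 1 and 2 the share was 4.69% and 4.5%. With replicate 3 left out, the ratio of osythdf3a to DJ was 0.341. All 3 lines were set against the same DJ libraries, as all lines labelled NIP were against the same NIP libraries.

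Ordered by group mean, OsCCC2 was at 0.433 ± 0.166 CPM in NIP (SD, n = 3 here and for every group but osythdf2a). It was at 0.448 ± 0.108 in osythdf1a, 0.499 ± 0.127 in osythdf1c, 0.555 ± 0.244 in osythdf3b and 0.656 ± 0.232 CPM in osythdf3a. The libraries of these neighbours in the order overlapped one another. Then came osythdf5c at 0.931 ± 0.240, RNAi-OsYTHDF2C at 0.960 ± 0.148, OE-OsYTHDF1A at 1.08 ± 0.143 and osythdf2b at 1.14 ± 0.251 CPM, with overlap at every step. The next groups were RNAi-OsYTHDC1A at 1.80 ± 0.290, DJ at 1.96 ± 0.350, osythdf3c at 2.06 ± 0.467 and osythdf4c at 2.11 ± 0.162 CPM, and at the top were osythdf1b at 2.72 ± 0.568 and osythdf2a at 3.31 ± 0.509 CPM (SD, n = 2). With scaling by library totals, the order was broken at 2 places. The highest osythdf2b library (1.43 CPM) lay below the lowest RNAi-OsYTHDC1A library (1.47 CPM), and the highest osythdf4c library (2.30 CPM) below the lowest osythdf1b library (2.33 CPM). Both gaps are small against the counting intervals of single libraries. The labelled backgrounds were mixed along the order, since osythdf1a and osythdf3a stood among the lowest groups and osythdf2a was the highest.

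Measures of the libraries moved with the level of OsCCC2. Over the 15 group means of log2(CPM + 0.1), the Pearson correlation of OsCCC2 was 0.81 with the TMM scaling factor of edgeR, -0.65 with the share of counts in the 10 most abundant genes, 0.63 with the number of features detected and -0.12 with the library total. The part of these measures in the level of OsCCC2 was not tested. Scaling by library totals in place of TMM shifted all features of a comparison by between -0.26 and 0.32 on the log2 scale, and by more than 0.1 in 10 of 14 comparisons. By group mean the same 6 groups stood highest with both scalings, but the gaps between libraries in the order closed with TMM. The highest osythdf2b library was then at 1.40 CPM and the lowest RNAi-OsYTHDC1A library at 1.28 CPM. Likewise the highest osythdf4c library was at 2.24 CPM and the lowest osythdf1b library at 2.14 CPM.

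Of the 20 neighbours, 8 were expressed enough to be tested in a fit of all 44 libraries. The other 12 had means of at most 0.114 CPM over the groups, and 3 of them had no count in any library. LOC_Os01g19860, the locus directly after OsCCC2, was among the 12 not tested, with 30 counts in all. Likeness to OsCCC2 was described by Pearson correlation over the 15 group means of log2(CPM + 0.1), with no p. The groups share their libraries and scaling between loci, so these points are not independent. The 8 tested neighbours had a median correlation of 0.28, against 0.31 over all 28833 tested features, whose middle 50 per cent lay between -0.16 and 0.66. These medians depended on the scaling and on the groups: the likeness of neighbours was 0.0756 with TMM, against 0.0404 over all features, and 0.0414 in the 11 groups labelled NIP alone, against 0.29. A correlation over 0.8 was found for 1 of 8 neighbours and for 10.9% of all tested features, and one over 0.5 for 2 of 8 and 38.1%. One under -0.5 was found for 2 of 8 neighbours and for 11.3% of all tested features.

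**Figure D2:**
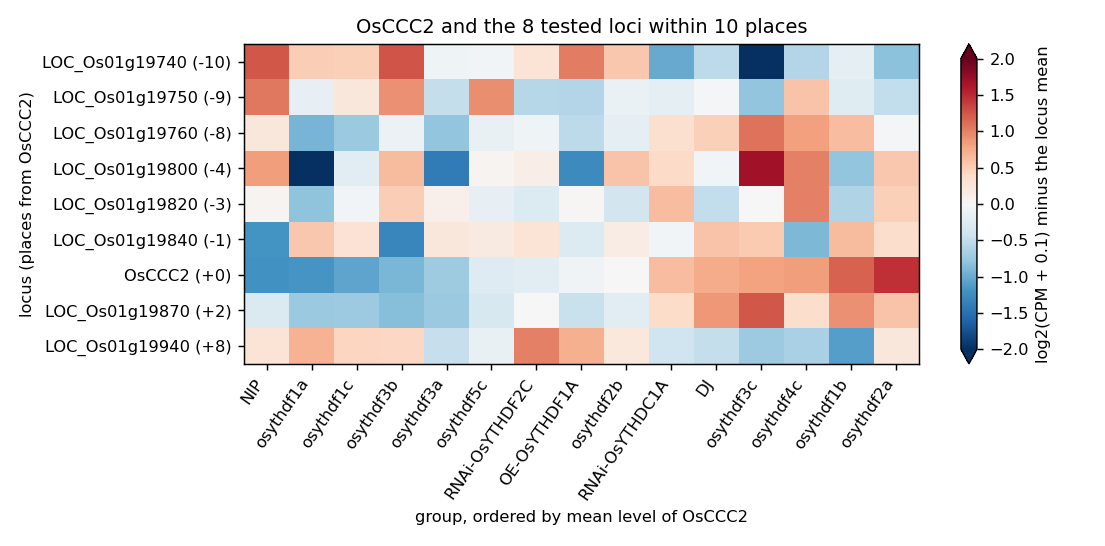
Group means of OsCCC2 and of the tested neighbours on chromosome 1, drawn as colours of log2(CPM + 0.1) minus the mean of the locus (colours are clipped at the ends of the bar), with loci as rows in ID order and groups as columns in the order of OsCCC2. LOC_Os01g19870 shares the 6 highest groups with OsCCC2, and LOC_Os01g19740 is lowest in osythdf3c, at 212 CPM.

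LOC_Os01g19840 stands directly before OsCCC2 in ID order and was far more abundant. Its group means ran from 47.0 ± 1.36 CPM in osythdf3b and 50.6 ± 0.535 CPM in NIP to 172 ± 1.97 CPM in DJ and 179 ± 5.29 CPM in osythdf1b (SD, n = 3 each). Its correlation with OsCCC2 was 0.35. In osythdf1c, where OsCCC2 overlapped NIP, LOC_Os01g19840 rose to 142 ± 12.1 CPM (adjusted p = 2.1e-17, edgeR quasi-likelihood fit, Benjamini-Hochberg, at a log2 fold change of 1.45 with an SE of 0.07). In osythdf4c, where OsCCC2 was 4.89 times its level in NIP, LOC_Os01g19840 stood at 61.9 ± 8.20 CPM (adjusted p = 0.085, same edgeR fit, at a log2 fold change of 0.14 with an SE of 0.07), and all its libraries lay above NIP. For LOC_Os01g19840 in osythdf4c against NIP the call depended on the setting: scaling by library totals gave a log2 fold change of 0.30 with an adjusted p of 0.00039 in edgeR, and over the settings tried adjusted p (edgeR, DESeq2 or limma) ran from 0.00039 to 0.35. In osythdf1a, where OsCCC2 was at 0.228 of its DJ level, it was at 169 ± 7.13 CPM, and its libraries overlapped DJ. The edgeR test with TMM called that difference higher in osythdf1a, at a log2 fold change of 0.22, and scaling by library totals gave -0.03.

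LOC_Os01g19870, 2 places after OsCCC2, was the neighbour most like it. Its correlation with OsCCC2 was 0.88, and 0.86 without osythdf1b and osythdf2a. It was at 9.42 ± 0.476 CPM in NIP and 21 ± 1.44 CPM in DJ (SD, n = 3 each), and its group means ran from 6.36 ± 0.122 CPM in osythdf3b to 27.3 ± 0.608 CPM in osythdf3c. It was the only tested neighbour whose 6 highest groups were those of OsCCC2. Of all tested features edgeR called 78.5% in osythdf3c, 76.9% in osythdf1b, 66.8% in osythdf4c and 73.8% in RNAi-OsYTHDC1A, each against NIP. The locus was singled out by its correlation over these same group means, so the calls below are no separate support for the likeness. Against NIP it rose in osythdf3c (log2 fold change 1.25, SE 0.08), osythdf1b (0.97, SE 0.08), osythdf4c (0.49, SE 0.08) and RNAi-OsYTHDC1A (0.35, SE 0.08). Adjusted p were 6.5e-23, 1e-17, 4.5e-07 and 8.8e-05 in the edgeR quasi-likelihood fit (Benjamini-Hochberg). These fold changes are scaled by TMM, whereas the CPM and the ratios of OsCCC2 are scaled by library totals. With library totals in edgeR, the 4 fold changes of LOC_Os01g19870 were 1.53, 1.22, 0.64 and 0.66, in the same order. In RNAi-OsYTHDF2C, one of the middle lines, it was at 11.6 ± 0.598 CPM, above NIP in every library, and edgeR called it higher (adjusted p = 0.042, Benjamini-Hochberg, at a log2 fold change of 0.19 with an SE of 0.08). For LOC_Os01g19870 in RNAi-OsYTHDF2C against NIP that call was lost without the filter on low counts in edgeR (adjusted p = 0.11) and in DESeq2 (adjusted p = 0.08), and in edgeR without NIP replicate 2 (adjusted p = 0.17) or without RNAi-OsYTHDF2C replicate 3 (adjusted p = 0.18). Against DJ it fell in osythdf1a and in osythdf3a, with a log2 fold change of -1.36 and an SE of 0.10 in both, and adjusted p of 1.2e-18 and 3.1e-18 in the edgeR fit for DJ (Benjamini-Hochberg).

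The resemblance had exceptions. In osythdf2a, which had the highest level of OsCCC2, LOC_Os01g19870 fell from its DJ level to 17.2 ± 0.718 CPM (adjusted p = 0.00041, edgeR quasi-likelihood fit, Benjamini-Hochberg, at a log2 fold change of -0.39 with an SE of 0.09). It also fell in osythdf1c and osythdf3b, where OsCCC2 overlapped NIP, with log2 fold changes of -0.49 and a call in both. In osythdf5c, osythdf2b and OE-OsYTHDF1A, where OsCCC2 was above NIP in every library, LOC_Os01g19870 overlapped NIP at 9.22 ± 0.246, 9.80 ± 1.06 and 8.47 ± 0.523 CPM, and the edgeR fit gave adjusted p of 0.65, 0.37 and 0.93 (Benjamini-Hochberg).

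LOC_Os01g19740, 10 places before OsCCC2, was the most abundant of the neighbours and ran the other way, with a correlation of -0.73. It was at 2063 ± 41.3 CPM in NIP and 606 ± 8.64 CPM in DJ (SD, n = 3 each), and between 212 ± 29.4 CPM in osythdf3c and 2090 ± 75.9 CPM in osythdf3b. It fell in osythdf3c by 3.57 on the log2 scale with an SE of 0.12 (adjusted p = 1e-18, edgeR quasi-likelihood fit, Benjamini-Hochberg). Against DJ it rose in osythdf1a (log2 fold change 1.28, SE 0.03) and in osythdf3a (0.69, SE 0.03), where OsCCC2 was lower. It fell in osythdf2a (-0.39, SE 0.04), where OsCCC2 was higher, and edgeR called all 3 of these differences from DJ. Against NIP there were exceptions. LOC_Os01g19740 fell in osythdf1c (-0.80, SE 0.11, edgeR adjusted p = 5.9e-07), where OsCCC2 overlapped NIP. In OE-OsYTHDF1A, where OsCCC2 was 2.49 times its NIP level, edgeR made no call (-0.08, SE 0.11, adjusted p = 0.52). The correlation comes from these same group means, so the calls are no separate support for it. Among the rest, the correlation with OsCCC2 was 0.69 for LOC_Os01g19760, 0.35 for LOC_Os01g19800, 0.22 for LOC_Os01g19820, -0.42 for LOC_Os01g19750 and -0.59 for LOC_Os01g19940.

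**Figure D3:**
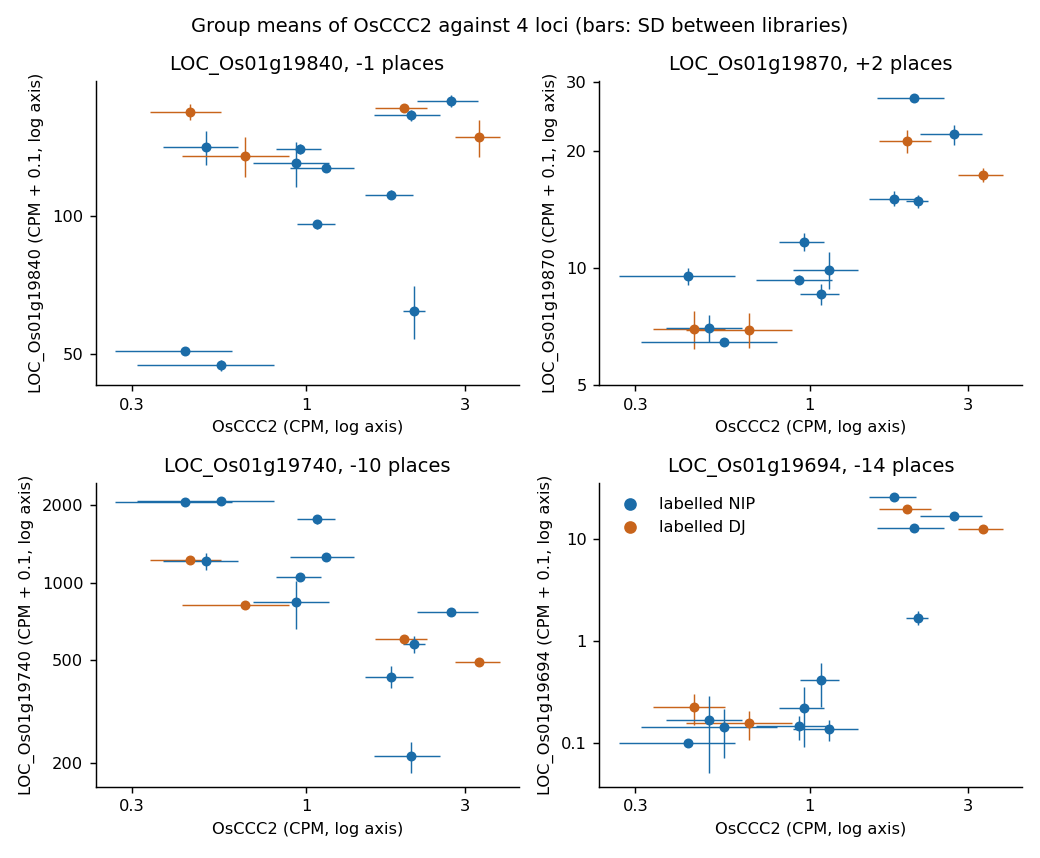
Group means of OsCCC2 in CPM (horizontal, log axis) against those of LOC_Os01g19840, LOC_Os01g19870, LOC_Os01g19740 and LOC_Os01g19694 in CPM + 0.1 (vertical, log axis), with SD between libraries as bars, blue for groups labelled NIP and orange for those labelled DJ. LOC_Os01g19870 rises along OsCCC2 (correlation 0.88), LOC_Os01g19740 falls (-0.73), and LOC_Os01g19840 is low in NIP, osythdf3b and osythdf4c at quite different levels of OsCCC2.

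Calls among the neighbours were frequent, as they were over all features. Of the 8 tested neighbours edgeR called 8 in osythdf3c, 4 higher and 4 lower, where 78.5% of all tested features were called. It called 8 in osythdf1b (76.9% of all tested features), 8 in RNAi-OsYTHDC1A (73.8%) and 8 in RNAi-OsYTHDF2C (68.7%). It called 7 in osythdf2b (65.0%), 6 in osythdf5c (62.6%) and 5 each in osythdf1c (68.7%), osythdf4c (66.8%) and OE-OsYTHDF1A (63.3%). In osythdf3b 4 were called (40.0%). Of 7 neighbours tested against DJ, 6 were called in osythdf1a (77.0% of all tested features), 7 in osythdf2a (51.8%) and 7 in osythdf3a (72.2%). Between DJ and NIP 7 of 8 were called (75.1%). Added up, that made 64 of 80 tests for lines labelled NIP and 20 of 21 for those labelled DJ. The median share of all tested features called per comparison was 67.75% and 72.2%. These tests reuse the same loci and the same NIP or DJ libraries, so they are not independent. In each of the 14 comparisons some called neighbours were higher and others lower, whatever the direction of OsCCC2.

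Fewer neighbours were called with a difference of at least 2-fold. In lines labelled NIP it was 5 of 8 in osythdf3c, where 38.6% of all tested features were called at that size, and 5 of 8 in osythdf1b (35.0%). It was 3 of 8 in osythdf1c (26.2%), RNAi-OsYTHDF2C (26.7%) and OE-OsYTHDF1A (23.5%), and 2 of 8 in osythdf5c (21.1%), osythdf4c (23.0%), RNAi-OsYTHDC1A (30.2%) and osythdf2b (21.3%). In osythdf3b, with 9.97% of all features, it was 0 of 8, although 4 were called at an adjusted p under 0.05 in edgeR. Against DJ it was 5 of 7 in osythdf1a (36.1%), 3 of 7 in osythdf3a (29.3%) and 0 of 7 in osythdf2a (12.0%), where 7 were called without the fold minimum. Between DJ and NIP it was 5 of 8 (35.0%).

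**Figure D4:**
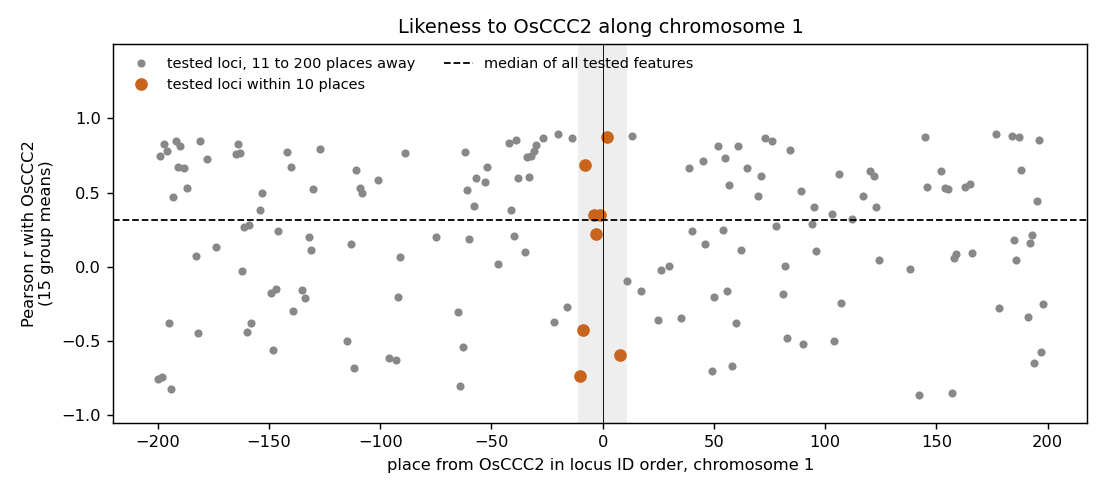
Pearson correlation with OsCCC2 over 15 group means (vertical axis) for tested loci of chromosome 1, by place from OsCCC2 in ID order (horizontal axis), with the median of all tested features as a dashed line at 0.31. High and low values stand next to each other on both sides of OsCCC2.

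Further out the picture was mixed as well. Among the 6 tested loci at 11 to 20 places the median correlation was 0.38, and 3 of them were over 0.8. It was 0.31 for 24 loci at 21 to 50 places, 0.28 for 40 loci at 51 to 100 places, 0.32 for 3664 loci of the rest of chromosome 1 and 0.33 for 23309 loci of other chromosomes. These bands of distance were added after the values had been seen, and the 3 loci over 0.8 are named for the same reason. LOC_Os01g19630 was at 5.86 ± 1.19 CPM in osythdf3b and 23.5 ± 0.370 CPM in osythdf2a, with a correlation of 0.89. LOC_Os01g19694 had no counts in NIP, where 3 counts over the group would be 0.0430 CPM, and stood at 19.8 ± 1.31 CPM in DJ, 25.9 ± 0.405 CPM in RNAi-OsYTHDC1A and 1.59 ± 0.259 CPM in osythdf4c. Outside the 6 groups with the most OsCCC2 its mean was at most 0.317 CPM. LOC_Os01g19990 was at 4.32 ± 0.964 CPM in DJ and at least 1.56 CPM in the other 5 of these groups, and at most 0.0673 CPM elsewhere. LOC_Os01g19694 stood at 16.8 ± 1.07 CPM in osythdf1b, labelled NIP, and at 0.125 ± 0.0780 CPM in osythdf1a, labelled DJ. Whether a locus without counts had low expression or a sequence that differs from the reference genome was not tested.

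The set of 6 groups at the top of OsCCC2 was shared widely in the genome. The same 6 groups at the top of the order, ranked in any way among themselves, were found for 4358 of all tested features (15.1%), a count also chosen after the values had been seen. By chromosome, the share ran from 12.5% on chromosome 11 to 17.6% on chromosome 3, and on chromosome 1 it was 16.0%, or 599 loci. With TMM scaling it was 2666 features, or 9.25%. Among the neighbours it was 1 of 8, at 11 to 20 places 3 of 6, at 21 to 50 places 7 of 24 (29.2%), at 51 to 100 places 6 of 40 and on other chromosomes 15.5%.

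**Figure D5:**
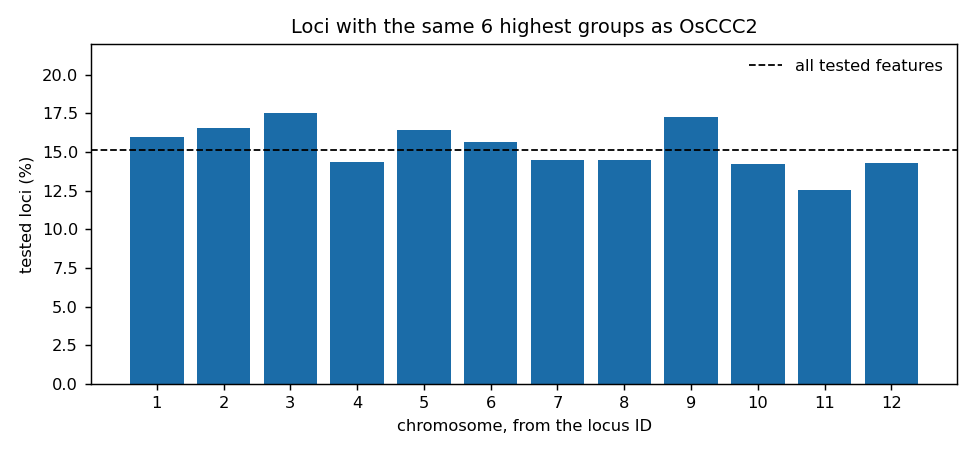
Share of tested loci (%, vertical axis) whose 6 highest groups are those of OsCCC2, by chromosome (horizontal axis), with the share over all tested features, 15.1%, as a dashed line. Every chromosome has such loci, from 12.5% to 17.6%.

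The 2 loci most like OsCCC2 were on other chromosomes, as were 23309 of all 28833 tested features, with 3742 on chromosome 1. The place of 2 loci therefore says little. Among 22142 loci with a mean of at least 1 CPM, LOC_Os09g36670 on chromosome 9 ranked first, with a Pearson correlation of 0.96 over 15 groups, a Spearman correlation of 0.93 and a Pearson correlation of 0.95 without osythdf1b and osythdf2a. It was at 11.04 ± 0.439 CPM in NIP and 22.5 ± 1.76 CPM in DJ (SD, n = 3 each), and ran from 8.47 CPM in osythdf1c to 27.2 CPM in osythdf3c. LOC_Os10g05220 on chromosome 10 came second, at 0.95, with 6.65 CPM in osythdf3b and 15.8 CPM in osythdf1b. As a fold between the highest and the lowest group, their range was smaller than that of OsCCC2. The most unlike loci were LOC_Os04g43030, with a correlation of -0.91 and means from 19.97 CPM in osythdf3c to 43.8 CPM in osythdf1a, and LOC_Os06g41990, also at -0.91, from 239 CPM in osythdf3c to 512 CPM in NIP. Of 18 other genes of ion transport listed for comparison, OsCCC1 among them, 0 could be paired with an ID of the tables, so their levels were not analysed here.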

How the data were processed

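The authors deposited whole-number counts per feature and FPKM. Reads were aligned or counted with HISAT2 and featureCounts on build IRGSP-1.0, per the submitters' processing notes; for tool versions, settings and use of strand, nothing is given in the sources used here. Reads of overlapping, antisense or near-identical genes therefore cannot be told apart. The deposited FPKM follow from the counts, column totals and whole feature lengths (2391 bases for OsCCC2, deviating by less than 0.01 bases). Columns without a sample here, 40 in the counts and 40 in the FPKM, were not used. Chromosome and order come from locus IDs, and no coordinates are given.

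Lines were set against NIP or DJ, as their label gives the background, in edgeR 4.0.16 (R 4.3.3; TMM, filterByExpr, robust two-sided quasi-likelihood test). There was 1 fit for 33 libraries labelled NIP (27584 features), 1 for 11 labelled DJ (26925) and 1 for all 44 (28833), for DJ against NIP. The threshold for a call was an adjusted p of 0.05 (Benjamini-Hochberg over all features tested). Where labels do not show that libraries came from separate plants, p measures only the spread between libraries. CPM were scaled by library totals, with a pseudocount of 0.1 in correlations, and intervals are exact at 95%. The fits were checked beforehand on counts simulated from the group means and spread of these data, with few features changed. That check does not cover comparisons in which most features are called. Alternatives included DESeq2 1.42.0 and, on the log2 of FPKM with a pseudocount of 1 or 0.1, limma 3.58.1.

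OsCCC2, the 20 loci, the gene list and the tests were chosen with earlier results of these data known. The naming rule took OsCCC2, its 20 neighbours, and the 2 loci most like and the 2 most unlike it among those of at least 1 CPM. Loci outside it are said to be chosen after their values were seen.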

Additional observations from a re-analysis of the deposited data

How the results depend on the processing

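The OsCCC2 differences were set beside the log2 SD between libraries, combined over line and reference. They moved by less than it in 14 of 14 comparisons with TMM and in 83 of 83 with 1 library left out. Leaving out 1 of 2 or 3 libraries can hardly move a mean by that SD, so the 83 were largely set beforehand. FPKM, a fixed multiple of CPM for 1 gene, could not move the differences. The sign turned only for OsCCC2 in osythdf1c against NIP, from -0.02 to 0.55 (log2) with 1 library left out. In the OsCCC2 level by group, the log2 ratio of the highest to the lowest mean was 2.94, 2.55 with TMM, and 2.77 to 3.28 with 1 library left out. Replicate numbers did not pair libraries (correlations of deviations from -0.0561 to 0.0454), and with the replicate block the neighbour calls, lines against NIP, were 63, those against DJ 20 and DJ against NIP 7, beside 64, 20 and 7; edgeR's adjusted p for LOC_Os01g19870 in RNAi-OsYTHDF2C against NIP was then 0.056. At 2-fold or more, 27 of 80 tests against NIP and 8 of 21 against DJ gave a call (over all features 9.97 to 38.6%). Fewer or more loci changed the counts by construction (over all features 40.0 to 78.5%). Taking 5 loci each side gave 31 of 40 (NIP), 11 of 12 (DJ) and 4 of 4 (DJ against NIP). Taking 20 loci each side gave 93 of 130, 34 of 39 and 12 of 14. With 1 library left out the counts were 62 to 65, 19 to 20 and 6 to 7. The likeness of neighbours, a median correlation of 0.28, was 0.19 by Spearman, 0.0756 with TMM (0.0404 over all features), 0.35 for 5 loci each side, 0.0414 in the 11 groups labelled NIP (0.29 over all features), 0.35 at 1 CPM or more, and 0.27 to 0.29 with 1 library left out. The cause of these moves was not tested. Among single neighbours, 20 of 971 results under other settings had another sign than in the TMM fit. Where at least 1 of the fits compared made a call, these were LOC_Os01g19760 in RNAi-OsYTHDC1A against NIP (0.0898 with library totals, 0.0782 with FPKM + 1, 0.0882 with FPKM + 0.1), LOC_Os01g19760 in DJ against NIP (0.25, 0.22 and 0.25), LOC_Os01g19840 in osythdf1a against DJ (-0.0267, -0.0274 and -0.0274) and LOC_Os01g19940 in osythdf3a against DJ (-0.0055 with FPKM + 1 and -0.0064 with FPKM + 0.1). Uncalled in both, they were LOC_Os01g19870 in osythdf2b against NIP (0.0537 with library totals, 0.0406 with FPKM + 1, 0.0515 with FPKM + 0.1), LOC_Os01g19820 in OE-OsYTHDF1A against NIP (-0.041, -0.0395 and -0.0417), LOC_Os01g19800 in osythdf4c against NIP (-0.0108 without the filter, -0.0119 with only the 2 groups compared) and LOC_Os01g19750 in osythdf5c against NIP (0.0164 with FPKM + 0.1). With 1 library left out, 8 of 647 signs turned, in LOC_Os01g19870 in OE-OsYTHDF1A against NIP (-0.054 to 0.0305), LOC_Os01g19750 in osythdf5c against NIP (-0.57 to 0.32), LOC_Os01g19750 in osythdf3b against NIP (-0.52 to 0.36) and LOC_Os01g19800 in osythdf4c against NIP (-0.0257 to 0.0656). Direction and call were both kept in 867 of the 971 and 618 of the 647. At 6 to 70 counts per library, counting error limits which OsCCC2 differences can be seen.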
